A study of Mus musculus with 8 samples.

Results

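The 10 genes described here encode RNA-binding proteins that choose which exons enter a messenger RNA in muscle and other tissues: Rbfox1, Rbfox2, Rbfox3, Mbnl1, Mbnl2, Ptbp1, Ptbp2, Celf2, Rbpms and Esrp1. They were chosen by the difference of Rbfox1 between genotypes in these same arrays, to which genes of related function were added, and their probes are all non-control probes with a RefSeq transcript of one of them as identifier. That gave 10 of the 21368 named genes and 22 of the 55681 probes on the array. RNA came from the thoracic aorta of Fto -/- mice, which lack the RNA demethylase gene Fto, and of Fto +/+ mice, with 4 samples of each genotype. All samples shared a C57BL6J/NMRI strain background and were labelled male; the labels give no age, no detail of the Fto allele, and not whether 1 animal gave 1 sample, so SEs and p-values cover only the spread among these samples, which may be technical. Each sample was read with 1 dye on 1 array.

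Several facts of the series bear on its labels. In all samples the free-text description contradicts the genotype in the title and the genotype field, and groups here follow the title and that field. Fto itself fell 8.47-fold in Fto -/- samples, with a log2 level of -2.51 ± 0.24 in Fto -/- and 0.57 ± 0.21 in Fto +/+ samples (SD, n = 4 each). By an exact permutation test, two-sided, p was 0.0286, the smallest this design can give. Intensities of Fto were low in Fto -/- samples, at 49.2 to 70.1. With another background correction, normexp, the log2 difference of Fto was -1.97 rather than -3.08. Whether its probe lies inside the deleted stretch could not be read from the files. Xist, the RNA of the inactive X chromosome, was measured above background by both its probes on each of the 8 arrays, and 5 of 6 probes of 5 Y-linked genes were so on 0 arrays; the sixth, of Uty, was so on 1 array, Fto +/+ replicate 3. These values go against the label male in both genotypes. All 10 smooth muscle markers listed, among them the contractile genes Acta2 and Tagln, cleared the background on each array. A log2 level here and below is the log2 of a probe's background-subtracted intensity over the 75th percentile of its array, which ran from 294.9 to 415.6. Levels of different probes cannot be set against each other, since each probe binds with its own strength. In whole-vessel RNA, fewer cells of a type and less RNA per cell cannot be told apart.

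Splicing regulators of these families bind short sequence elements in or beside an exon and favour its inclusion or its skipping, often depending on which side of the exon they bind. Rbfox1 is best known from neurons, heart and skeletal muscle, Rbfox2 is expressed broadly, and Rbfox3 is the neuronal nuclear antigen NeuN. The muscleblind proteins Mbnl1 and Mbnl2 drive adult splicing in muscle, Celf proteins often act against them, and Ptbp1 represses many exons that are used in muscle and neurons. Rbpms promotes the splicing programme of differentiated vascular smooth muscle in rat cells, and Esrp1 is an epithelial regulator.

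Rbfox1 carried by far the widest difference of these genes, so the sequences around its annotated starts are shown; which start the aorta uses was not measured, because both Rbfox1 probes are assigned to the same transcript, NM_021477. RefSeq lists 2 starts for the gene Rbfox1 in the table used here (build GRCm38.p6, plus strand), each given from 250 bases before to 50 bases after the start. Capitals mark CANNTG, the core of an E-box, a motif that reads the same on both strands.
Rbfox1 upstream start, chr16:5884543-5884842: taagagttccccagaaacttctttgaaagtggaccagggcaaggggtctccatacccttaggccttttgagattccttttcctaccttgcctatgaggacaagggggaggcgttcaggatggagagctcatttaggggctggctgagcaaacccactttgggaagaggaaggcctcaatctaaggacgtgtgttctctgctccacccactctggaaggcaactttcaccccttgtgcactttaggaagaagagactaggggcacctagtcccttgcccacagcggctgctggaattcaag
Rbfox1 downstream start, chr16:7069585-7069884: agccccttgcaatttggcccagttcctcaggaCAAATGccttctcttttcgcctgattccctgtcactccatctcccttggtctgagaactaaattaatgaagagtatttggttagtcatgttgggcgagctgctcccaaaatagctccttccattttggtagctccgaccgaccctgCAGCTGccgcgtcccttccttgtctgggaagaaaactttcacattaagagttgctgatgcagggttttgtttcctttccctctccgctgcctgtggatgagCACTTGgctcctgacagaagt
The upstream window holds 0 matches to CANNTG and the downstream window 3, while 72.3% of 32817 promoter windows of the same length hold at least 1. Neither window holds a CArG box, the element bound by serum response factor, which 1.63% of windows hold on either strand. A match is only a description of these letters.

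Both Rbfox1 probes separated the genotypes, with all Fto -/- samples above all Fto +/+ samples. With probe A_55_P1953400 the intensities were 483, 397, 394 and 429 in Fto -/- replicates 1 to 4, against 141, 168, 119 and 70.7 in Fto +/+ replicates 1 to 4. The lowest Fto -/- intensity thus lay well over the highest Fto +/+ one. The log2 level was 0.36 ± 0.04 in Fto -/- and -1.64 ± 0.39 in Fto +/+ samples (SD, n = 4 each), a 4.02-fold difference (log2 difference 2.01 ± 0.18, SE). Fto -/- samples were tight around their mean, and the spread lay in the Fto +/+ samples, of which replicate 4 was lowest. The other probe, A_55_P1953391, read 218, 204, 224 and 208 in Fto -/- replicates 1 to 4, against 76.1, 52.4, 46.7 and 56.3 in Fto +/+ replicates 1 to 4. It was well above background on all 4 Fto -/- arrays but on only 2 Fto +/+ arrays, replicates 1 and 4. Its log2 level was -0.63 ± 0.16 in Fto -/- and -2.71 ± 0.36 in Fto +/+ samples (SD, n = 4 each), a log2 difference of 2.08 ± 0.18 (SE). Its 4 Fto -/- arrays were by themselves enough to pass the detection filter. Since 2 Fto +/+ arrays were not well above background, no fold is given for this probe. The tested probes, 25292 in all, were those that stood well above background on 4 or more arrays.

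Of the 22 probes, 18 reached that level of detection, and 16 of them, from 8 genes, were well above background on all 8 arrays. In the limma fit over all 25292 probes both Rbfox1 probes passed the adjusted threshold of 0.05, as 1.66% of all tested probes did (0.842% higher and 0.814% lower in Fto -/-), and 0 of the other 16 did (4 at an unadjusted p under 0.05, as 19.0% of all tested probes were). The genes were put together with this contrast known, so these counts describe the members and test nothing. The Rbfox1 difference was smaller with another background correction, normexp, where the log2 differences were 1.44 (A_55_P1953400) and 1.16 (A_55_P1953391). With slide row as a block both were 1.92; within row 1 they were 1.77 and 1.69 and within row 2 2.07 and 2.15, where 1 array of a genotype is set against 3.

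**Figure D1:**
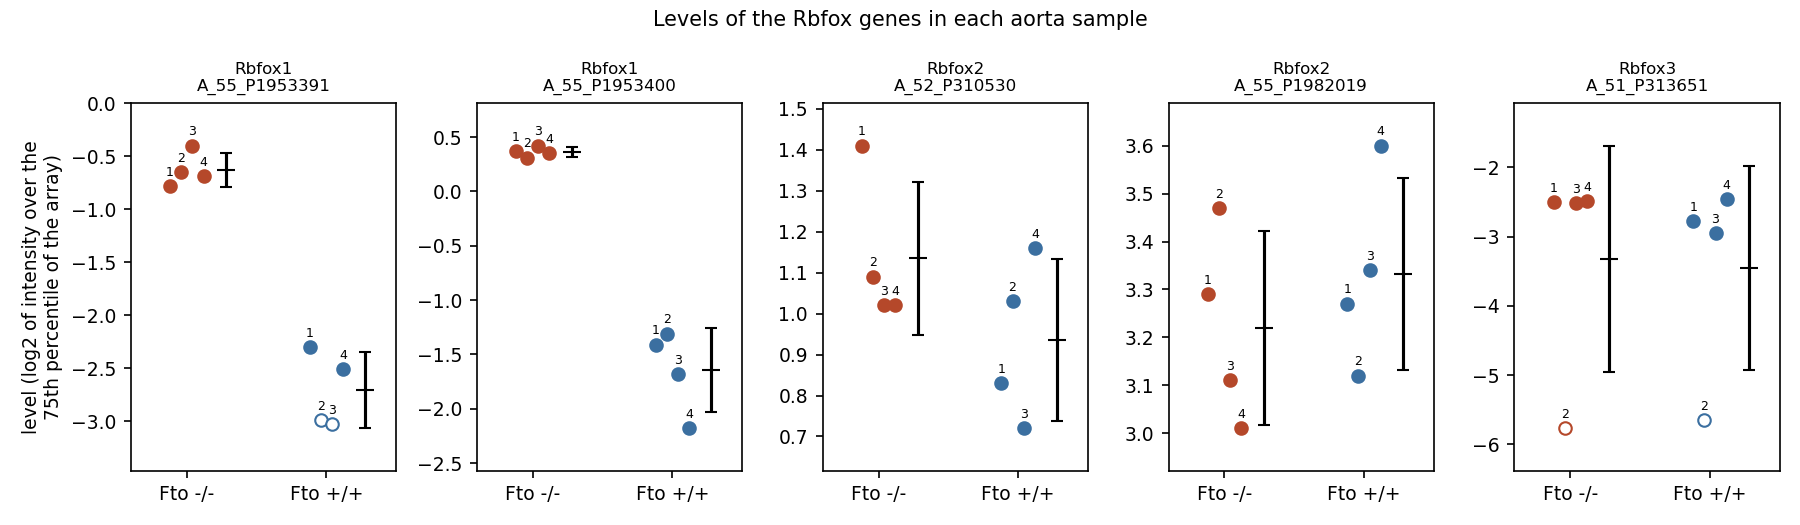
Log2 level (intensity over the 75th percentile of the array) of each measured Rbfox probe in the 4 Fto -/- (left, red) and 4 Fto +/+ (right, blue) samples, numbered by replicate; open points were not well above background, and the bars are mean ± SD (n = 4). The genotypes separate for both Rbfox1 probes, with means of 0.36 and -1.64 for A_55_P1953400, and overlap for Rbfox2 and Rbfox3.

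The broadly expressed paralogue Rbfox2 overlapped between genotypes with both probes. Probe A_55_P1982019 had log2 levels of 3.29, 3.47, 3.11 and 3.01 in Fto -/- replicates 1 to 4, against 3.27, 3.12, 3.34 and 3.60 in Fto +/+ replicates 1 to 4, a difference of -0.11 ± 0.14 (SE). Probe A_52_P310530 spanned 1.02 to 1.41 across Fto -/- and 0.72 to 1.16 across Fto +/+ samples, a difference of 0.20 ± 0.14 (SE). The probes thus lay on opposite sides of 0, each within 2 SEs of it.

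Rbfox3 was at or near background. Of its 3 probes, 1 was well above background on 0 arrays, 1 on a single array (Fto -/- replicate 1) and 1, A_51_P313651, on 6 arrays. The last had log2 levels of -2.50, -5.77, -2.52 and -2.49 in Fto -/- replicates 1 to 4, against -2.78, -5.65, -2.95 and -2.46 in Fto +/+ replicates 1 to 4. Replicate 2 of each genotype stood far below the rest; these arrays both lay in slide column 2, and the part of array position was not tested. Over the 3 measured samples of each genotype the level was -2.50 ± 0.01 in Fto -/- and -2.73 ± 0.25 in Fto +/+ samples (SD), a difference of 0.23, and over all 8 arrays it was 0.14 ± 0.92 (SE).

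The muscleblind genes were somewhat lower on average in Fto -/- samples, with overlap at each of their 4 probes. Mbnl1 had log2 levels of 5.27, 5.12, 5.33 and 5.37 in Fto -/- replicates 1 to 4, against 5.70, 5.57, 5.41 and 5.28 in Fto +/+ replicates 1 to 4. Fto +/+ replicate 4 lay among the Fto -/- samples, and the difference was -0.22 ± 0.12 (SE). Mbnl2 probe A_51_P189269 had 0.64, 0.82, 0.65 and 0.43 in Fto -/- replicates 1 to 4, against 0.97, 0.90, 1.15 and 0.73 in Fto +/+ replicates 1 to 4, a difference of -0.30 ± 0.12 (SE). The overlap came from Fto -/- replicate 2 and Fto +/+ replicate 4. The other Mbnl2 probes differed by -0.19 ± 0.12 (A_51_P494361) and -0.12 ± 0.14 (A_55_P2106265; SE), the second of them by 0.29 within slide row 1 and -0.32 within row 2.

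Ptbp1, which represses muscle exons, had levels of 3.29, 3.19, 3.10 and 3.04 in Fto -/- replicates 1 to 4 with probe A_51_P462692, against 3.25, 3.29, 3.25 and 3.38 in Fto +/+ replicates 1 to 4, a difference of -0.14 ± 0.09 (SE). Fto -/- replicate 1 lay inside the Fto +/+ range and the other Fto -/- samples below it. Its other probe, A_55_P2171623, differed by 0.16 ± 0.19 (SE), with Fto +/+ samples from 0.31 to 1.27 around Fto -/- samples from 0.81 to 1.09. Ptbp2, the paralogue that takes over from Ptbp1 in neurons, had levels of 0.36, 0.50, 0.25 and 0.17 in Fto -/- replicates 1 to 4, against 0.06, 0.09, -0.14 and -0.05 in Fto +/+ replicates 1 to 4. All Fto -/- samples lay above all Fto +/+ samples, by 0.33 ± 0.11 on average (SE), a 1.26-fold difference.

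Celf2 was lower in Fto -/- samples with each of its 3 probes. The narrowest spread was that of probe A_51_P182471, with levels of 2.97, 2.98, 2.91 and 2.92 in Fto -/- replicates 1 to 4, against 3.30, 3.28, 3.29 and 3.29 in Fto +/+ replicates 1 to 4. The genotypes did not overlap, and the difference was -0.34 ± 0.08 (SE). Probe A_55_P2005570, assigned to the same transcript (NM_010160), had 4.64, 4.60, 4.55 and 4.47 in Fto -/- replicates 1 to 4, against 4.82, 4.66, 4.76 and 4.80 in Fto +/+ replicates 1 to 4. Here too every Fto -/- sample was below every Fto +/+ sample, with a difference of -0.19 ± 0.09 (SE). Probe A_55_P2005555, assigned to NM_001110229, overlapped between genotypes, at -0.17 ± 0.12 (SE). In all, 5 of the 18 measured probes had no overlap between genotypes (both Rbfox1 probes and that of Ptbp2 higher, 2 Celf2 probes lower in Fto -/-), as 12.1% of all tested probes had. The median difference over the 18 probes was -0.13, and -0.15 over the 16 without Rbfox1, beside -0.02 over all tested probes. Probe A_51_P182471 passed the limma threshold with array weights (-0.35) and with normexp correction (-0.38).

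Rbpms varied widely within each genotype, and its probes overlapped between genotypes. Probe A_51_P350332 had levels of 2.04, 2.86, 2.28 and 2.28 in Fto -/- replicates 1 to 4, against 2.55, 2.98, 2.63 and 2.88 in Fto +/+ replicates 1 to 4, a difference of -0.40 ± 0.18 (SE). Probe A_55_P1968231, assigned to the same transcript (NM_019733), had 1.38, 2.15, 1.56 and 1.76 in Fto -/- replicates 1 to 4, against 1.92, 2.45, 2.04 and 2.28 in Fto +/+ replicates 1 to 4, a difference of -0.46 ± 0.19 (SE). On both, Fto -/- replicate 2 lay among the Fto +/+ samples and the other Fto -/- samples below all of them. The third probe, A_55_P2097448, is assigned to another transcript, NM_001042675, and differed by -0.04 ± 0.20 (SE); there Fto -/- replicate 2, at 5.62, was the highest of all 8 samples. A list of 10 smooth muscle markers, all measured, had a mean centred level of -0.18, 0.06, -0.17 and -0.06 in Fto -/- replicates 1 to 4, against -0.01, 0.09, 0.03 and 0.23 in Fto +/+ replicates 1 to 4. Its Fto -/- replicate 2 also lay among the Fto +/+ samples, and the part of smooth muscle content in the Rbpms difference was not tested. The median difference of that list was -0.22, with 6 genes lower and 4 higher in Fto -/- samples. Limma called 0 of them, and 4 were at an unadjusted p under 0.05, as 19.0% of all tested probes were. Those 4 were Lmod1 (-0.78 ± 0.17 SE), Synpo2 (-0.46 ± 0.12 SE), Cnn1 (-0.32 ± 0.10 SE) and Des (0.41 ± 0.12 SE), with limma adjusted p from 0.0681 to 0.148. Acta2 differed by 0.08 ± 0.10 and Tagln by 0.10 ± 0.11 (SE). Acta2 intensities were 301000 to 326000 in Fto -/- and 329000 to 335000 in Fto +/+ samples. Those of Tagln were 271000 to 297000 in Fto -/- and 293000 to 311000 in Fto +/+ samples. Whether signals this high were compressed was not tested.

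**Figure D2:**
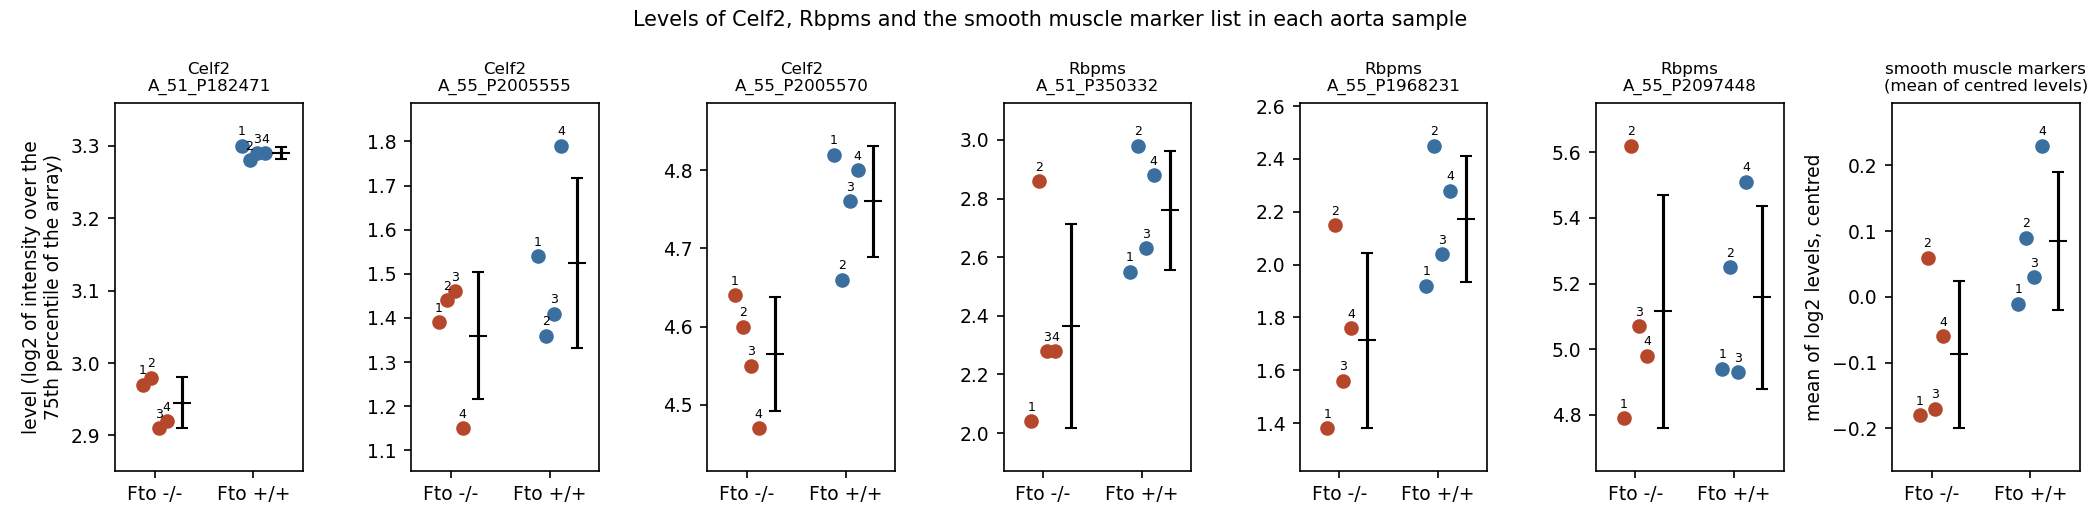
Log2 levels of the Celf2 and Rbpms probes and, in the last panel, the mean centred level of 10 smooth muscle markers in each Fto -/- (left, red) and Fto +/+ (right, blue) sample, with mean ± SD (n = 4). Celf2 probe A_51_P182471 separates the genotypes, while Fto -/- replicate 2 is high for every Rbpms probe and for the marker list.

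The epithelial regulator Esrp1 was not measured in most samples: probe A_55_P2033767 was well above background on 0 arrays and probe A_55_P2182586 on 1, of the Fto +/+ group, so no fold is given. Of 15 listed epithelial markers, 5 were measured and 6 (Cdh1, Epcam, Krt8, Krt15, Ovol1 and Rab25) were well above background on no array. The keratin gene Krt18 was well above background on all 8 arrays, with intensities of 3870 to 6150 in Fto -/- and 3730 to 5620 in Fto +/+ samples. Of the measured genes limma called 0, with Krt14 alone (-1.40 ± 0.55 SE) at an unadjusted p under 0.05 (adjusted p = 0.222). Krt14 lay near background, well above it on only 1 Fto -/- and 3 Fto +/+ arrays.

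Among other genes of splicing control, 2 passed the limma threshold over all tested probes. Tia1, which encodes an RNA-binding protein of splicing and of stress granules, rose with 1 of its 2 probes. Its levels were -0.78, -0.54, -0.54 and -0.76 in Fto -/- replicates 1 to 4, against -1.46, -1.70, -1.23 and -1.24 in Fto +/+ replicates 1 to 4 (log2 difference 0.75 ± 0.13 SE, limma adjusted p = 0.0358). The genotypes did not overlap with that probe, while the other Tia1 probe, of the same transcript, differed by 0.04 ± 0.16 (SE, limma adjusted p = 0.922). Hnrnph3, which encodes a member of the hnRNP family of RNA packaging and splicing proteins, fell: it had levels of -1.84, -1.88, -1.96 and -1.93 in Fto -/- replicates 1 to 4, against -1.28, -1.07, -1.16 and -1.24 in Fto +/+ replicates 1 to 4 (-0.72 ± 0.09 SE, limma adjusted p = 0.0101). All Fto -/- samples were below all Fto +/+ samples. Hnrnph3 kept its call whichever 1 array was left out, and Tia1 kept it only without Fto +/+ replicate 4 (0.81). With slide row as a block Hnrnph3 differed by -0.69 and Tia1 by 0.73, and neither passed (limma adjusted p 0.0725 and 0.151). With normexp correction Hnrnph3 shrank to -0.42 and passed, and Tia1 to 0.46 and did not (limma adjusted p 0.0349 and 0.0636). The Hnrnph3 probe was dim, at intensities of 75.7 to 104 in Fto -/- and 135 to 198 in Fto +/+ samples.

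By list, 1 of 17 measured genes in the list called tissue-restricted splicing regulators rose (Tia1), 0 fell and 16 did not pass. The median difference was 0.08. That name is only a label here and below, since the list also holds broadly expressed genes, Tia1 among them. Rbpms2, the paralogue of Rbpms, had the next smallest p, at -0.66 ± 0.15 (SE, limma adjusted p = 0.0719). Of the 11 measured SR proteins, which mark exons for inclusion, limma called 0, while 1 had an unadjusted p under 0.05, and the median was 0.10; Srsf11 differed by 0.47 ± 0.19 and Srsf4 by -0.20 ± 0.13 (SE, limma adjusted p 0.237 and 0.418). Among 25 hnRNP proteins Hnrnph3 fell, 0 rose and 24 did not pass, with a median of -0.06. Of the 8 proteins of the complex in which Rbfox proteins act, known as LASR, 0 passed in limma, and 0 were at an unadjusted p under 0.05. Their median was -0.06, with Hnrnpul2 at -0.22 ± 0.10 (SE, limma adjusted p = 0.275).

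Genes known for exons that muscle splicing regulators control were lower more often than not. Of 34 measured, 28 had a negative difference and 6 a positive one, with a median of -0.16, beside -0.02 over all tested probes. In limma 2 fell, 0 rose and 32 did not pass, while 0.814% of all tested probes were called lower and 0.842% higher. At an unadjusted p under 0.05 were 7 of the 34 genes, as 19.0% of all tested probes were. Tpm1 (NM_001164249), a tropomyosin gene with exons set by Ptbp1, had levels of 4.63, 4.66, 4.19 and 4.60 in Fto -/- replicates 1 to 4, against 5.16, 5.31, 5.14 and 5.06 in Fto +/+ replicates 1 to 4 (-0.65 ± 0.13 SE, limma adjusted p = 0.0463). Its 4 other probes, assigned to other transcripts, differed by -0.20 to 0.10 and did not pass. Tpm2 fell by 0.53 on the log2 scale (-0.53 ± 0.10 SE, limma adjusted p = 0.0465), and its other probe differed by -0.49 and did not pass (0.0694). Neither gene passed in the fit blocked on slide row, at -0.62 for Tpm1 and -0.51 for Tpm2 (limma adjusted p 0.185 and 0.186). When arrays were left out 1 at a time, Tpm1 passed only with Fto +/+ replicate 4 absent (-0.68) and Tpm2 in 0 of 8 cases (-0.59 to -0.49). A probe reads the transcripts that hold its sequence, so none of these values is a measure of exon inclusion.

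**Figure D3:**
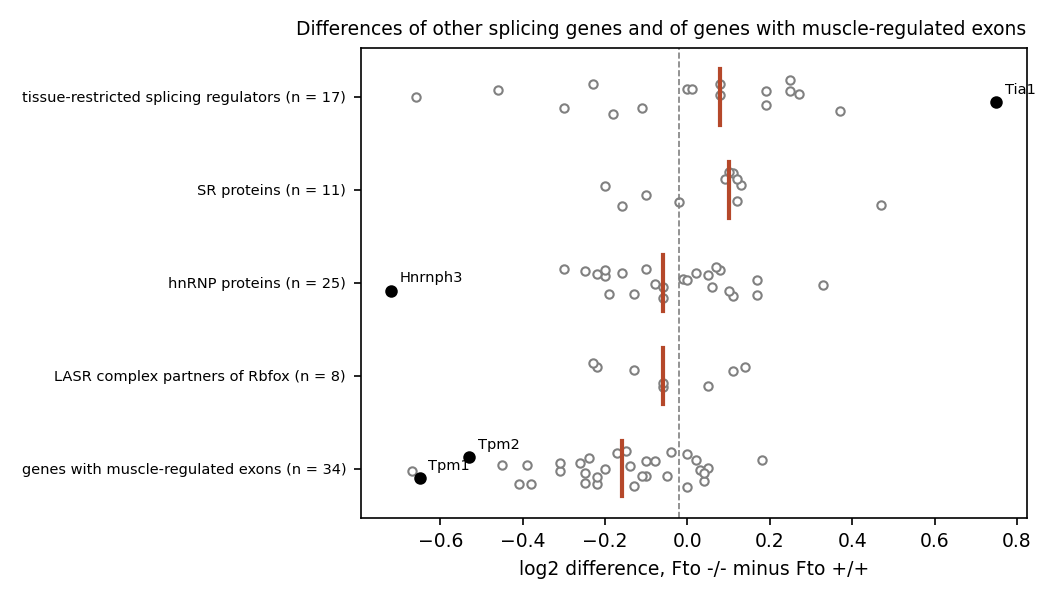
Log2 difference (Fto -/- minus Fto +/+) of each measured gene in 5 lists of splicing genes and of genes with muscle-regulated exons; filled points passed the limma threshold, red bars are list medians and the dashed line is the median of all tested probes, -0.02. The points past the threshold are Tia1 (0.75), Hnrnph3 (-0.72), Tpm1 (-0.65) and Tpm2 (-0.53).

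Markers of tissues in which Rbfox1 is known, and of others around the vessel, were read beside it, each list as the mean of its genes' centred log2 levels. Neuron markers were measured for 6 of 14 genes, and Tubb3, Syt1, Nefl, Nefm, Prph and Dbh were well above background on no array; the level spanned -0.09 to 0.18 across Fto -/- and -0.16 to -0.01 across Fto +/+ samples. The growth cone gene Gap43 differed by 0.90 ± 0.24 and the neuronal RNA-binding protein gene Elavl4 by -0.46 ± 0.17 (SE, limma adjusted p 0.105 and 0.19). Both lay near background: Gap43 was well above it on 4 Fto -/- but only 2 Fto +/+ arrays, and Elavl4 on 2 Fto -/- and 3 Fto +/+ arrays. Schwann cell markers (5 of 8 measured, with Sox10 and Gfap on no array) spanned 0.08 to 0.19 across Fto -/- and -0.22 to -0.02 across Fto +/+ samples, without overlap. Of the 5 genes, 4 were higher and 1, Ncmap, was lower in Fto -/- samples, with a median difference of 0.47. S100b differed by 0.71 ± 0.26 and Ncmap by -0.49 ± 0.21 (SE, limma adjusted p 0.198 and 0.249). Skeletal muscle markers were measured for 7 of 14 genes, with Myod1 and Myog on no array, and spanned -0.52 to -0.15 across Fto -/- and -0.47 to 1.85 across Fto +/+ samples. They were highest in Fto +/+ replicates 3 and 1, at 1.85 and 0.72. All 7 genes were lower on average in Fto -/- samples, with a median difference of -0.75. Cardiac muscle markers (9 of 11 measured) spanned -1.39 to 1.73 across Fto -/- and -0.60 to 0.67 across Fto +/+ samples. Fto -/- replicate 3 had the lowest cardiac level of all 8 samples and Fto -/- replicate 4 the highest.

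Brown adipocyte markers (10 of 11 measured) were at 0.37, -0.28, 1.48 and 1.11 in Fto -/- replicates 1 to 4, against -1.07, -1.33, -0.07 and -0.20 in Fto +/+ replicates 1 to 4. Cidea, a brown fat lipid droplet gene, differed by 1.88 ± 0.47 (SE, limma adjusted p = 0.0884). The median difference of the list was 1.51, with 8 genes higher and 2 lower in Fto -/- samples. Its genes ran from -0.13 to 2.90. T cell markers (11 of 12 measured) spanned -1.20 to 1.69 across Fto -/- and -1.58 to 1.36 across Fto +/+ samples, with Fto -/- replicate 2 at -1.20 and Fto +/+ replicate 2 at 1.36. All 11 were higher on average in Fto -/- samples. Their median difference was 1.53, and 0.73 with detection required on all arrays. White adipocyte markers (9 of 10; Lep on no array) spanned -0.27 to 0.89 across Fto -/- and -1.26 to 0.65 across Fto +/+ samples. The ranges were -0.05 to 0.28 in Fto -/- and -0.67 to 0.22 in Fto +/+ samples for 9 fibroblast markers, and -0.36 to 0.80 in Fto -/- and -1.37 to 0.35 in Fto +/+ samples for 9 macrophage markers. For 10 endothelial markers they were -0.34 to 0.20 in Fto -/- and -0.10 to 0.42 in Fto +/+ samples. Median differences were 0.61 for white adipocyte (8 higher, 1 lower) and 0.24 for fibroblast markers (8 higher, 1 lower). They were 0.35 for macrophage (9 higher, 0 lower) and -0.22 for endothelial markers (3 higher, 7 lower). In these lists 0 genes passed in limma, beside 1.66% of all tested probes. An unadjusted p under 0.05, in either direction, was found for 19.0% of all tested probes. The counts by list were 2 of 6 neuron, 3 of 5 Schwann, 1 of 7 skeletal, 0 of 9 cardiac and 6 of 10 brown adipocyte genes. For the rest they were 2 of 11 T cell, 1 of 9 white adipocyte, 2 of 9 fibroblast, 0 of 9 macrophage, 1 of 10 endothelial and 4 of 10 smooth muscle genes. The part of these cell types in the Rbfox1 difference was not tested.

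**Figure D4:**
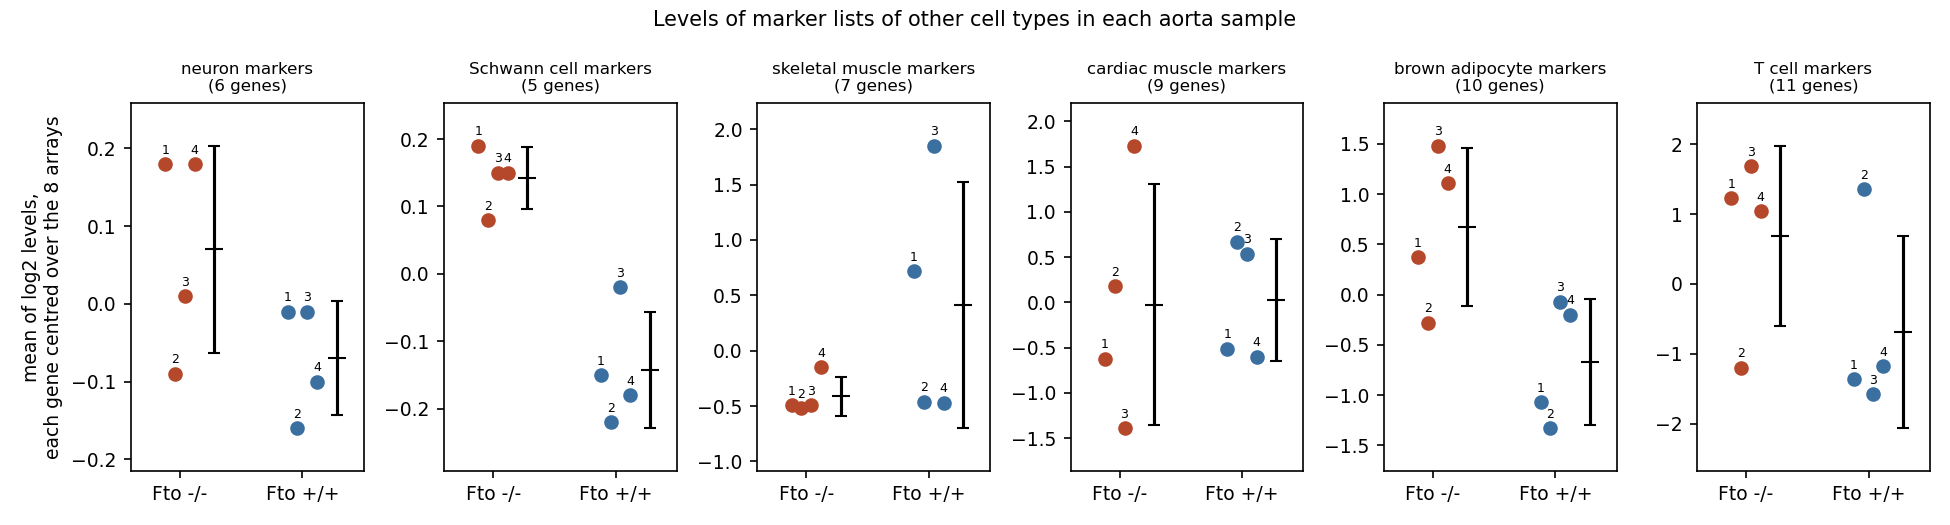
Mean centred log2 level of 6 marker lists (vertical axis, each gene centred over the 8 arrays) in each Fto -/- (left, red) and Fto +/+ (right, blue) sample, numbered by replicate, with mean ± SD (n = 4). Brown adipocyte markers reach 1.48 in Fto -/- replicate 3 and are at -0.28 in replicate 2, skeletal muscle markers are highest in Fto +/+ replicate 3 (1.85), and Schwann cell markers do not overlap between genotypes.

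Once the genotype means were taken off, the remaining array-to-array pattern of Rbfox1 (mean of both probes) had its highest Pearson r, over 8 arrays and 13043 genes, with Rnu12 (0.96), Greb1l (0.94), H4c4, Stk39 and Zfp330 (0.92 each), and Fbxo45, Mia and Nudt11 (0.91 each). The arrays share 1 slide, and the pair of Rbfox1 probes had an r of -0.17 with each other in this measure, so the list describes little of Rbfox1 beyond these arrays.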

How the data were processed

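Spot intensity was extracted by the authors with Agilent Feature Extraction 11.0.1.1, which subtracts background and leaves arrays unscaled to each other, per the file headers; these annotate the array on mm9. The deposited series table holds log2 values centred per probe, as found from the values (r of 0.983 to 0.997 with the scanner levels over 22211 probes, column medians of -0.0095 to 0.0049); how it was normalised is unknown.

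Control spots (3671 per array) and 126 to 189 outlier spots per array were left out, spots of a probe were averaged, and log2 intensity was set against each array's 75th percentile. Probes well above background on at least 4 arrays (25292) were fitted with limma 3.58.1 in R 4.3.3 (Fto -/- minus Fto +/+, Benjamini-Hochberg over all of them, threshold 0.05). The fit was tested on simulated data. Of all probes 50.9% were named through RefSeq accessions of a GRCm38.p6 gene table. A gene outside the 10 is represented by its tested probe of highest mean. List genes named are those past the threshold (at most 4), or else the 2 of smallest p; Rbpms2, Krt14, Krt18, Ncmap, the smooth muscle genes and the array-level examples were named after their values were seen. A few list genes are not reported here. The members, lists and tests were chosen with earlier results of these data known. The arrays share 1 slide and 1 scan date. Slide row 1 held Fto -/- replicates 1 to 3 and Fto +/+ replicate 1, and row 2 held the other arrays. Column 1 held only Fto -/- and column 4 only Fto +/+ arrays, so genotype and position are partly confounded. Slide row was fitted as a block and column was not. Deviations from the genotype means gave little sign that replicate numbers pair the samples (r 0.155, -0.0235, -0.0187 and -0.0405). A low r cannot exclude a pairing. The number of arrays limits the precision.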

Additional observations from a re-analysis of the deposited data

Results flagged for a closer look

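In 5 of 80 groups of 4 samples checked (each member probe, each list and Fto in each genotype), the gap between the highest or lowest sample and its neighbour took more of the group's range than Dixon's critical value for 4 values, a limit that chance passes in about 1 of 20 groups. Rbfox3 probe A_51_P313651 passed it in both genotypes, with 0.994 of the range in Fto -/- and 0.847 in Fto +/+ samples, each time through replicate 2, which was not well above background. Skeletal muscle markers passed it in Fto -/- samples (0.919), where replicate 4 stood at -0.15 above the others. T cell markers passed it in Fto +/+ samples (0.862), through replicate 2 at 1.36. The tissue-restricted splicing regulators passed it in Fto +/+ samples (0.848), with replicate 4 at -0.04, a gap that is small in log2 terms.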

How the results depend on the processing

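Both Rbfox1 probes stayed past the threshold without any 1 of the 8 arrays (2 member probes in each fit) and with slide row as a block; with detection required on all arrays 1 of them was left to test, and within each slide row, 1 array against 3, 0 were called. No probe of the 10 genes that passed changed sign. The probes of Rbfox2 (A_55_P1982019), Rbfox3, Mbnl2 (A_55_P2106265) and Rbpms (A_55_P2097448) took both signs over the settings, from -0.35 to 0.02, -0.82 to 1.19, -0.32 to 0.29 and -0.25 to 0.22. Counts of all probes higher and lower in Fto -/- were 777 and 847 with array weights, 61 and 35 without a filter, 33 and 13 with the row block, 0 and 0 within row 1, and 1 and 0 within row 2. Leaving out 1 array gave 55 to 499 higher and 46 to 387 lower. With the replicate block, 90 were higher and 42 lower; Rbfox1 differed by 2.01 and 2.08 and stayed called, and Hnrnph3 (adjusted p = 0.0606), Tia1 (0.0964), Tpm1 (0.0962) and Tpm2 (0.0932) did not pass. Fto differed by -3.02 within row 1 and -3.33 within row 2 (limma adjusted p 0.154 and 0.32).

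For list medians, slide row 1 alone gave 0 for tissue-restricted splicing regulators, 0.39 for Schwann and -0.03 for smooth muscle markers. Row 2 gave 0.10 for tissue-restricted regulators, -0.06 for SR proteins, 0.21 for neuron, 0.38 for Schwann, 1.61 for cardiac and -0.61 for epithelial markers. The tissue-restricted median was 0.13 with the percentile over detected probes, 0.09 with array weights, 0.02 with normexp, 0.05 with quantile normalisation and 0.05 in the series table, and the Schwann median was 0.36 with normexp. Without 1 array the medians ran from 0.01 (without Fto -/- replicate 4) to 0.10 for tissue-restricted regulators, 0 (without Fto +/+ replicate 4) to 0.14 for SR proteins and 0.30 (without Fto +/+ replicate 4) to 0.59 for Schwann markers. The normexp setting was chosen after seeing the data, since the files hold median rather than mean signals; it is the setting that moved Rbfox1 most. Dim probes limit what can be said of Rbfox3 and Esrp1. The causes of these shifts were not tested.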
